A study of Mus musculus with 2 samples.

Results

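Granulocyte-monocyte progenitors are immature bone marrow cells, here the cells of an osteoclast culture that carried the messages of primary granule proteins. A cell was taken as one when it had at least 5000 unique molecular identifiers (UMIs, counts of single captured messages), at least 300 genes and at most 10% mitochondrial UMIs, and when Mpo, Elane, Prtn3 and Ctsg together made at least 0.3% of its UMIs. It also had to hold less than 3% S100a8 and S100a9, less than 0.03% C1qa, C1qb and C1qc, and less than 0.1% Acp5 and Ctsk, which keeps out neutrophils, C1q macrophages and maturing osteoclasts. By these 11 genes 328 of 14896 filtered cells were progenitors, 167 of 6766 in the dihydrotestosterone (DHT) library and 161 of 8130 in the vehicle library. The levels of the 11 genes chose the cells, so they are given as description.

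The marrow came from 1 wild-type male C57BL/6J mouse 3 months old, and primary cells from it were kept in medium depleted of hormones. For 48 h they received 5 ng/mL M-CSF, the macrophage growth factor, and then for 24 h 100 ng/mL M-CSF, 30 ng/mL RANKL, which drives osteoclast formation, and 10 ng/mL human TNF, an inflammatory cytokine. The DHT group had 1 nM DHT, an androgen, in both steps, and the other group had an equal volume of ethanol, its solvent. The adherent cells, labelled as osteoclast precursors, were made into 1 droplet library of 3′ message ends per group. With 1 library from 1 mouse in each group there is no test between groups, and all intervals given are 95% intervals for counting error only.

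Granulocyte-monocyte progenitors arise from multipotent marrow cells and give rise to neutrophils and to monocytes, from which macrophages and osteoclasts form. At this stage the cells make the primary (azurophil) granule proteins, among them the peroxidase Mpo and the serine proteases neutrophil elastase (Elane), proteinase 3 (Prtn3) and cathepsin G (Ctsg). The factors Irf8 and Klf4 favour the monocyte path and Gfi1 and Cebpe the neutrophil path, and Irf8 and Gfi1 are known to oppose each other.

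The 2 libraries held 10798 DHT and 10630 vehicle barcodes. They shared 33 barcode sequences, and 0 of these were progenitors in both. The filtered cells of the DHT library had a median of 39807.5 UMIs and those of the vehicle library 53792.5, while the progenitors were close in depth, with medians of 74240 and 68425 UMIs and of 7839 and 7521 genes. Summed over the progenitors, the DHT library gave 12916581 UMIs and the vehicle library 11580514. Scrublet, a caller of doublets, marked 7 DHT and 11 vehicle progenitors, which were kept.

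Progenitors made 2.47% (exact binomial interval 2.11 to 2.87%) of filtered cells with DHT and 1.98% (1.69 to 2.31%) with vehicle, a ratio of 1.25 (0.998 to 1.56), whose interval just includes an even share. The interval lay above 1 with some other limits, with ratios of 1.36 (1.09 to 1.71) at 10000 UMIs, 1.57 (1.20 to 2.07) at a granule limit of 1%, 1.29 (1.03 to 1.63) without Scrublet calls and 1.47 (1.24 to 1.73) with the granule limit alone. With S100a8 and S100a9 under 1% the ratio was 1.099 (0.859 to 1.41). The granule limit alone was met by 322 DHT and 264 vehicle cells. Of these, 150 DHT and 97 vehicle cells had too much S100a8 and S100a9, and at most 5 cells per library failed each of the other limits. Between 0.27 and 0.3% granule UMIs, just outside the limit, lay 8 cells of each library, and between 0.3 and 0.33%, just inside, lay 8 DHT and 9 vehicle cells. Cells of neighbouring stages were also more frequent in the DHT library, with ratios of 1.42 (1.27 to 1.60) for a monocyte gate and 2.08 (1.90 to 2.29) for an immature neutrophil gate.

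The label was set beside a marker outside the rule. This marker rises with the granule share that chose the cells, so its levels describe them and are not independent support. The cells compared are the pooled rest and the osteoclast gate, not the monocyte and immature neutrophil gates. Ms4a3, a membrane protein gene that marks this stage, reached 812 CPM (the gene's UMIs scaled to a common total of all UMIs summed over the cells, known as counts per 1000000) in DHT and 630 in vehicle progenitors, against 44.7 and 17.9 in the other filtered cells. After every cell was thinned to 5000 UMIs, Ms4a3 was found in 94.01% of DHT and 89.4% of vehicle progenitors, and in 1.86 and 0.848% of cells of the Acp5 and Ctsk high osteoclast gate, which should lack it. The osteoclast gate had median depths of 64434 and 64236 UMIs before thinning, near those of the progenitors, and without thinning every progenitor held Ms4a3.

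Further genes set the progenitors apart from the other filtered cells in both libraries. Nkg7, a granule membrane protein, was at 197 CPM in DHT and 142 in vehicle progenitors and at 8.49 and 4.08 in the rest. Myb, a transcription factor of immature blood cells, was at 245 and 163 CPM against 14.7 and 4.72. Kit, the receptor of stem cell factor, was at 75.3 and 46.3 CPM against 6.17 and 2.11. Plac8 (2940 and 2435 CPM), the serine biosynthesis enzyme Phgdh (455 and 439), the proteoglycan Srgn that packs granule contents (1132 and 788) and the protease Prss57 (117 and 62.1) were likewise above the rest in both libraries. A cell picked by granule genes had to differ from the rest in genes that go with them, so these levels describe the cells. Genes of the rule itself stood at 4150 and 2661 CPM (Mpo), 4642 and 3793 (Elane), 5477 and 4367 (Prtn3), and 4007 and 3415 (Ctsg).

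The progenitors were not uniform, and the share of granule messages was used to order them. Most monocyte list members were highest at the low end and most neutrophil list members at the high end. The following 3 ranges of the granule share describe the order, and they are ranges of a score, not cell types. The low range, 0.3 to 1%, held 40 DHT and 64 vehicle cells, the middle range, 1 to 3%, held 81 and 53, and the high range, over 3%, held 46 and 44. The low range thus made 24.0% (17.7 to 31.2%) of DHT and 39.8% (32.1 to 47.8%) of vehicle progenitors, and the middle range 48.5% (40.7 to 56.3%) and 32.9% (25.7 to 40.8%). The median granule share was 1.88% in DHT cells (quartiles 1.08 and 3.08%) and 1.32% in vehicle cells (0.537 and 3.13%). Fewer DHT cells sat at the low end, which is a description, since the rule used these genes.

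**Figure D1:**
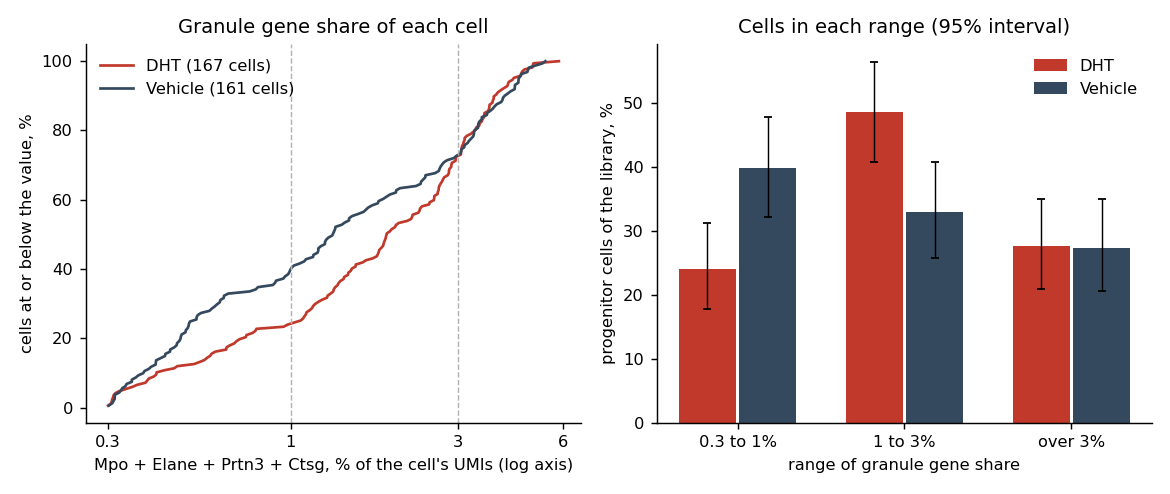
Granule gene share of the progenitors. Left, for each library, the percentage of cells (vertical axis) at or below a given share of UMIs from Mpo, Elane, Prtn3 and Ctsg (horizontal log axis, dashed lines at 1 and 3%); right, the percentage of each library's progenitors in each range, with bars for 167 DHT and 161 vehicle cells and exact 95% binomial intervals. The DHT curve runs below the vehicle curve up to about 3%, with 24.0% against 39.8% of cells in the low range.

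Of 15 measured monocyte list members 14 in the DHT and 11 in the vehicle library were highest in the low range. Ly6c2, the most abundant of them, ran the other way, from 1464 and 1535 CPM in the low to 1815 and 2440 in the high range. Irf8, the factor that directs progenitors to monocytes, was at 271 CPM in DHT and 352 in vehicle cells of the low range, at 122 and 171 in the middle range, and at 4.19 and 19.1 in the high range. Klf4, which acts in monocyte differentiation, went from 73.6 and 113 CPM through 8.37 and 17.4 to 0 UMIs in both libraries. F13a1, the coagulation factor XIII A chain that monocytes make, went from 303 and 363 CPM to 10.3 and 20.2. The chemokine receptor Ccr2 was at 151 and 134 CPM in the low range and at 4.19 and 8.41 in the high range. Cd34, a surface protein of early progenitors, was at 64.5 and 49.8 CPM in the low range and at 2.66 and 11.8 in the high range.

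The neutrophil factors Cebpe and Gfi1 ran the other way. Of 15 measured neutrophil list members 10 in each library were highest in the high range. In the low range 5 were highest in the DHT and 2 in the vehicle library. Chil3 was highest there in both, at 114 and 189.5 CPM against 42.6 and 109 in the high range. Cebpe, needed for secondary granules, was at 3.43 CPM in DHT and 6.45 in vehicle cells of the low range and at 172 and 179 in the high range. Gfi1, a repressor that supports neutrophil fate, was at 10.5 and 7.81 CPM in the low range and at 108.5 and 54.9 in the high range. Kit went from 25.01 and 14.3 to 109 and 104 CPM, and Ms4a3 from 380 and 362 to 1492 and 1452 CPM. Spi1 (PU.1), a factor of both paths, stayed between 269 and 342 CPM in all ranges of both libraries. Cells of the high range were also shallower, with medians of 56721.5 and 38438.5 UMIs against 97703.5 and 89614 in the low range.

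**Figure D2:**
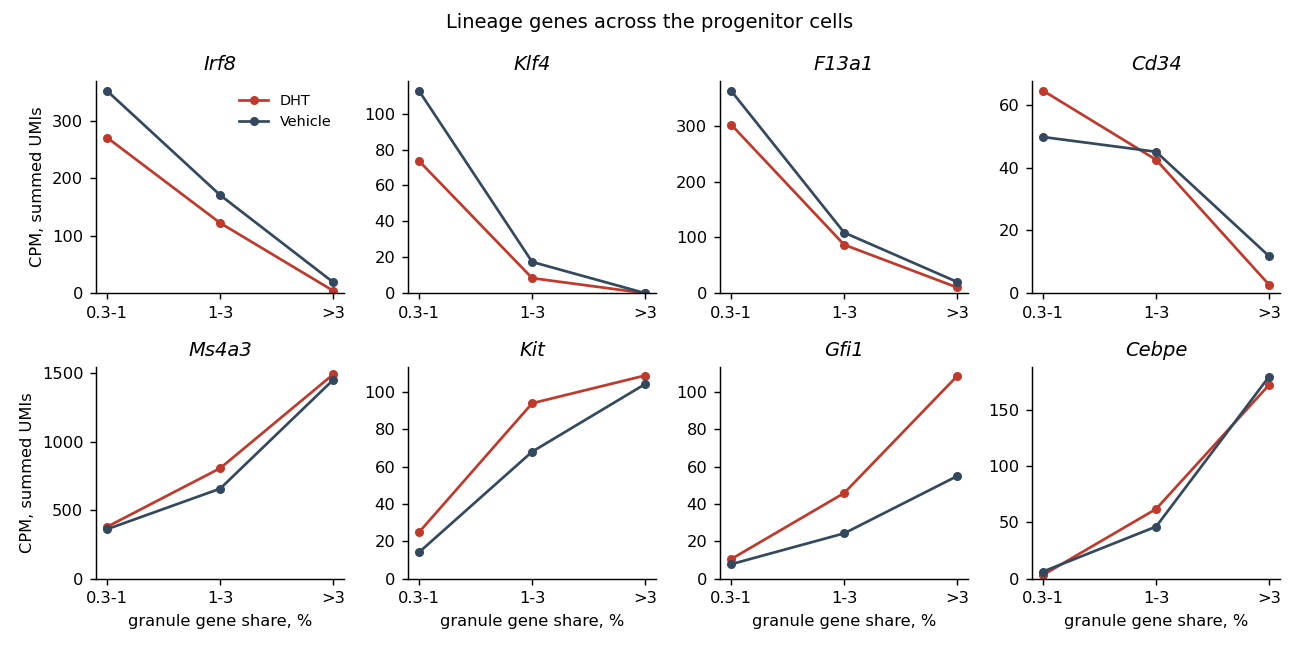
Lineage genes across the progenitors. Each panel gives 1 gene in CPM of the summed UMIs (vertical axis from 0) in the 3 ranges of granule gene share (horizontal axis), for the DHT and the vehicle library. Irf8, Klf4, F13a1 and Cd34 are highest in the low range and Ms4a3, Kit, Gfi1 and Cebpe in the high range, in both libraries.

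After thinning to 5000 UMIs the opposed factors were rarely seen in the same cell. A factor not seen at that depth can still be present. At full depth most DHT cells with Irf8 UMIs, and many such vehicle cells, also held Gfi1 UMIs. In 1 DHT cell Irf8 was at 282 CPM and Gfi1 at 70.5. The shares that follow thus hold for the thinned depth only. At 5000 UMIs per cell, Irf8 was seen in 54 of 167 DHT and 76 of 161 vehicle cells. Cebpe was seen in 3 of the 54 DHT cells with Irf8 (5.56%) and in 46.0% of the DHT cells without it. In the vehicle library Cebpe was seen in 5 of the 76 cells with Irf8 (6.58%) and in 42.4% of those without it. Gfi1 was seen in 12.96 and 2.63% of cells with Irf8 and in 35.4 and 21.2% of cells without it. Kit was seen in 16.7 and 6.58% of cells with Irf8 and in 46.9 and 37.6% without it. Cd34 had no such relation with Kit, which was seen in 37.5 and 19.0% of cells with Cd34 and in 37.1 and 23.6% of cells without it.

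The comparison of DHT with vehicle asked how an androgen alters these cells in an inflammatory osteoclast culture. In 6418 genes the larger of the DHT and vehicle levels was 20 CPM or more. With DHT 129 of them (2.01%) were 1.5-fold higher or more, and 98 (1.53%) were lower by that fold or more. Scaling by TMM, a trimmed mean over genes, turned this split to 95 higher and 109 lower, and scaling by the median of ratios to 89 and 114. Gene lists were read over 11252 genes whose larger level was 2 CPM or more, of which 757 were higher (6.73%) and 450 lower (4%), with a median log2 ratio of 0.08. A gene absent from 1 library was set there to 3 UMIs, which makes its ratio a lower bound.

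Type I interferon-stimulated genes were the group most often higher with DHT among the gene lists of more than 4 measured members, apart from markers of mature neutrophils, by the share of measured members. Of 64 listed genes 56 reached 2 CPM, 40 of these were higher, 2 were lower and 14 lay between, and the median log2 ratio was 1.04. Since 16 of the 56 reached 2 CPM with DHT alone, and so had to be higher there, the 40 that reached it in both libraries are the better base. Of these, 24 were higher and 2 lower, with a median of 0.75, against 4.49% higher and 2.79% lower among all 10610 genes so measured, with a median of 0.07. At 20 CPM, 19 members were left, of which 8 were higher and 0 lower, with a median of 0.57, and these 8 were among the 129 higher genes.

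The ubiquitin-like modifier Isg15 was at 17.7 CPM (exact Poisson interval 15.4 to 20.1) in DHT and 2.33 (1.54 to 3.39) in vehicle progenitors, a ratio of 7.57 (5.07 to 11.7). Single cells weighed heavily, since 1 cell held 32.9% of the 228 DHT UMIs of Isg15. Without the 3 highest cells of each library the log2 ratio was 2.43 in place of 2.92. Irf7, the factor that amplifies interferon production, was at 5.34 CPM with DHT (69 UMIs) and 0.432 with vehicle (5 UMIs), a ratio of 12.4 (5.05 to 39.3). Usp18, the protease that removes Isg15 from proteins, was counted 63 times with DHT and 1 time with vehicle, and Slfn4 79 and 3 times.

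Further members of the interferon list act in antiviral defence. The double-stranded RNA sensors Ifih1 (15.6 and 7.25 CPM) and Ddx58 (9.21 and 2.76) had log2 ratios of 1.11 and 1.74. The oligoadenylate synthetases Oas1a, Oas2 and Oas3 had 95, 73 and 71 UMIs with DHT and 16, 8 and 15 with vehicle. Ifit1, which binds foreign RNA caps, had 41 UMIs with DHT and 0 with vehicle, so it was at least 12.3-fold higher. Rtp4 was at 7.97 and 1.12 CPM and the chemokine gene Cxcl10 at 6.50 and 2.07. All of the genes in these sentences were low in absolute terms, below 20 CPM in both libraries.

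Members above 20 CPM with DHT, which hold more UMIs, had these ratios. Rnf213, a large ubiquitin ligase, was at 68.4 CPM (63.9 to 73.0) with DHT and 33.8 (30.5 to 37.3) with vehicle, a ratio of 2.02 (1.80 to 2.29). Trim30a was at 47.3 and 23.2 CPM (2.04, 1.76 to 2.36) and Ifi27l2a at 21.5 and 6.74 (3.20, 2.48 to 4.16). The RNA-editing enzyme Adar had a log2 ratio of 0.85, Lgals3bp of 0.74, the RNA-dependent kinase Eif2ak2 of 0.69, and Slfn9 of 0.65. Below 20 CPM, Stat2 and Irf9, parts of the complex through which type I interferon acts on genes, were at 16.6 and 9.15 CPM (0.86) and at 16.03 and 6.39 CPM (1.33). The most abundant member differed least: Ly6e was at 849 and 832 CPM (a ratio of 1.02, 0.994 to 1.05). Bst2 (0.36), Ifitm3 (0.17) and Shisa5 (-0.11) stayed within 1.5-fold, and Ms4a4c (-0.80) and Ms4a6d (-0.65), both under 10 CPM, were lower.

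**Figure D3:**
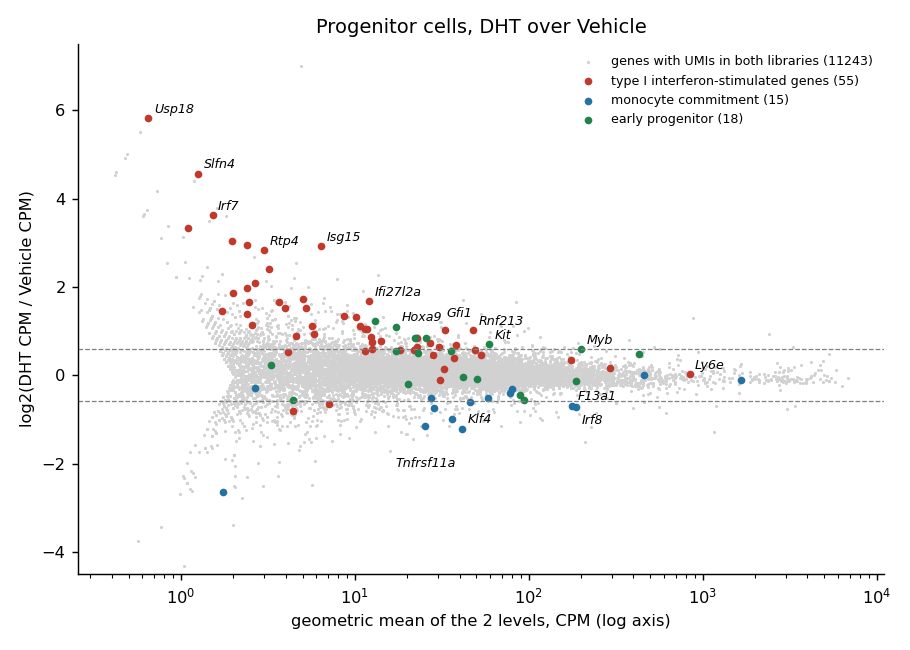
Progenitors with DHT against vehicle. Each point is a gene with UMIs in both libraries, with the geometric mean of its 2 levels in CPM (horizontal log axis) and the log2 ratio of DHT over vehicle (vertical axis); colours mark 3 gene lists and dashed lines 1.5-fold. Interferon-stimulated genes lie mostly above the upper line, furthest at low levels, while Ly6e lies near 0 and Klf4 and Irf8 lie below the lower line.

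Promoters of the higher members are shown because interferon acts on many of these genes through a known DNA element, the interferon-stimulated response element. Its core was searched as GAAA, NN and GAAA in a row, where NN is any 2 bases, on both strands, so that TTTC, NN and TTTC is the same motif read on the other strand, in the 250 bases before each start site in RefSeq promoters of GRCm38.p6. Of 32851 promoters, 978 held it (2.98%). Among list members with a promoter in the table, 13 of the 30 that were at least 1.5-fold higher held it at 1 or more starts (43.3%), and 3 of the other 13 measured members did (23.1%). For all measured genes with a promoter the share was 3.26%. A match says only that these letters are there. Stretches with the match nearest the start follow, written 5′ to 3′ on the gene's strand with all matches in capitals, and overlapping matches run together.
Isg15, chr4:156200850-156200909, minus strand: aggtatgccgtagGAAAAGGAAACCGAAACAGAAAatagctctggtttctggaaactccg
Ifit1, chr19:34640779-34640838, plus strand: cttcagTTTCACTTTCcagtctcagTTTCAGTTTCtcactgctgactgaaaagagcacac
Oas1a, chr5:120907526-120907564, minus strand: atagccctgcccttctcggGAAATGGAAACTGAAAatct
Oas3, chr5:120777700-120777759, minus strand: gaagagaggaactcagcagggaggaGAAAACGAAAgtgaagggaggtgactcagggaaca
Cxcl10, chr5:92349068-92349127, minus strand: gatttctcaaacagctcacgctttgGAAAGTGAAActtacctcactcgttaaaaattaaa
Trim30a, chr7:104465195-104465254, minus strand: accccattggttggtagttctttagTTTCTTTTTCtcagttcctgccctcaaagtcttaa
Isg15 held 3 matches, the last ending 57 bases before the start, and Ifit1 and Oas1a held 2 each, with the last 76 and 5 bases before it. Irf7 and Rnf213, higher with DHT too, had no match in their windows.

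The interferon list was set out by granule range, over the members that reached 2 CPM in both libraries. Higher were 22 of 36 in the low range (median 0.80), 23 of 39 in the middle range (0.64) and 20 of 36 in the high range (0.67), against 7.19, 7.25 and 12.5% of all genes so measured. Lower were 0, 1 and 0 members, against 3.29, 4.57 and 4.27% of all genes. With the DHT cells weighted to the vehicle library's mix of 3 ranges, 26 of 40 were higher and 0 lower (median 0.75). Among all 10615 genes so measured under this weighting, 441 were higher and 230 lower. Isg15 was at 8.83 and 1.02 CPM in the low, 21.7 and 2.81 in the middle and 21.7 and 5.61 in the high range. Trim30a was at 56.6 and 22.9, 41.4 and 26.4, and 46.8 and 17.4 CPM.

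Cell by cell the interferon list differed mostly in its upper part. The 64 listed genes made a median of 0.203% of a cell's UMIs with DHT (0.114 to 0.791%) and 0.181% with vehicle (0.0842 to 0.279%), and Ly6e gave 849 of the 2310 CPM of the measured members with DHT. Of the 167 DHT cells 25 lay above the highest vehicle cell, while the lower parts of both libraries overlapped. In the low range the medians were 0.238 and 0.199%, in the middle range 0.206 and 0.181%, and in the high range 0.160 and 0.139%. At 5000 UMIs per cell Isg15 was seen in 10 of 167 DHT cells (5.99%, 2.91 to 10.7%) and in 0 of 161 vehicle cells, where a limit of 3 cells allows up to 1.86% of cells with a UMI at this depth. Without thinning it was seen in 40.1 and 14.9%.

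**Figure D4:**
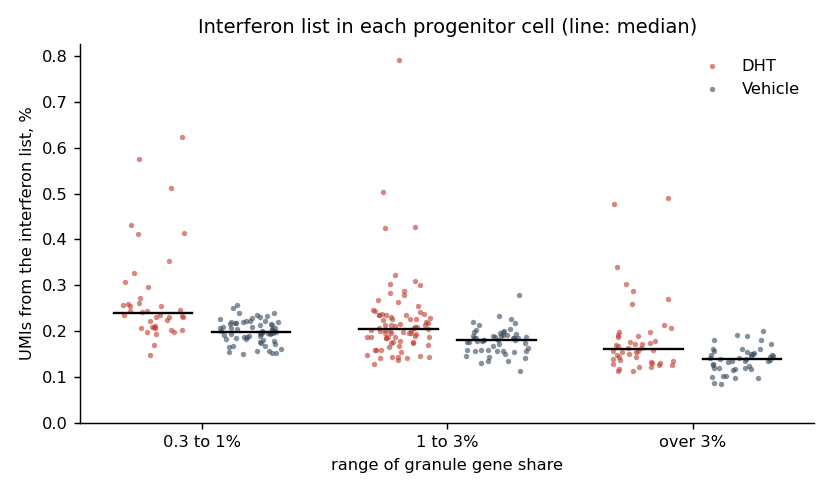
Share of each progenitor's UMIs from the interferon list. Points are single cells of the DHT and vehicle libraries in 3 ranges of granule gene share (horizontal axis), the vertical axis gives the percentage of the cell's UMIs from 64 listed genes, and black lines are medians. Vehicle cells end at 0.279%, and 25 of 167 DHT cells lie above that value.

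Interferon gene messages were also more frequent with DHT in cells of another kind. In the osteoclast gate Isg15 was at 79.6 CPM with DHT and 4.37 with vehicle, and Irf7 at 27.9 and 1.33. At 5000 UMIs Isg15 was seen in 20.6 and 2.45% of osteoclast gate cells, more often than in progenitors, and that gate may make these genes itself. The part of free RNA from other cells in the progenitors' values was not tested.

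The same list was read in neighbouring cell types. In the monocyte gate (670 DHT and 565 vehicle cells) 50 of 55 members past 2 CPM in both libraries were higher and 0 lower (median 1.28), against 2.1% higher and 0.863% lower among all genes so measured. In the immature neutrophil gate (1206 and 696 cells) 46 of 51 were higher and 0 lower (1.26), against 2.01 and 1.23% of all genes. With DHT, Isg15 was at 79.9 CPM in the monocyte gate and 124 in the neutrophil gate against 17.7 in progenitors, with log2 ratios of 2.97, 2.93 and 2.92. Irf7 was at 49.3 and 40.4 CPM against 5.34, and Slfn5 at 79.1 and 45.1 against 4.72. Ly6e had log2 ratios of 0.28 and 0.79 there and 0.03 in progenitors. Whether the response differs between the gates was not tested.

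**Figure D5:**
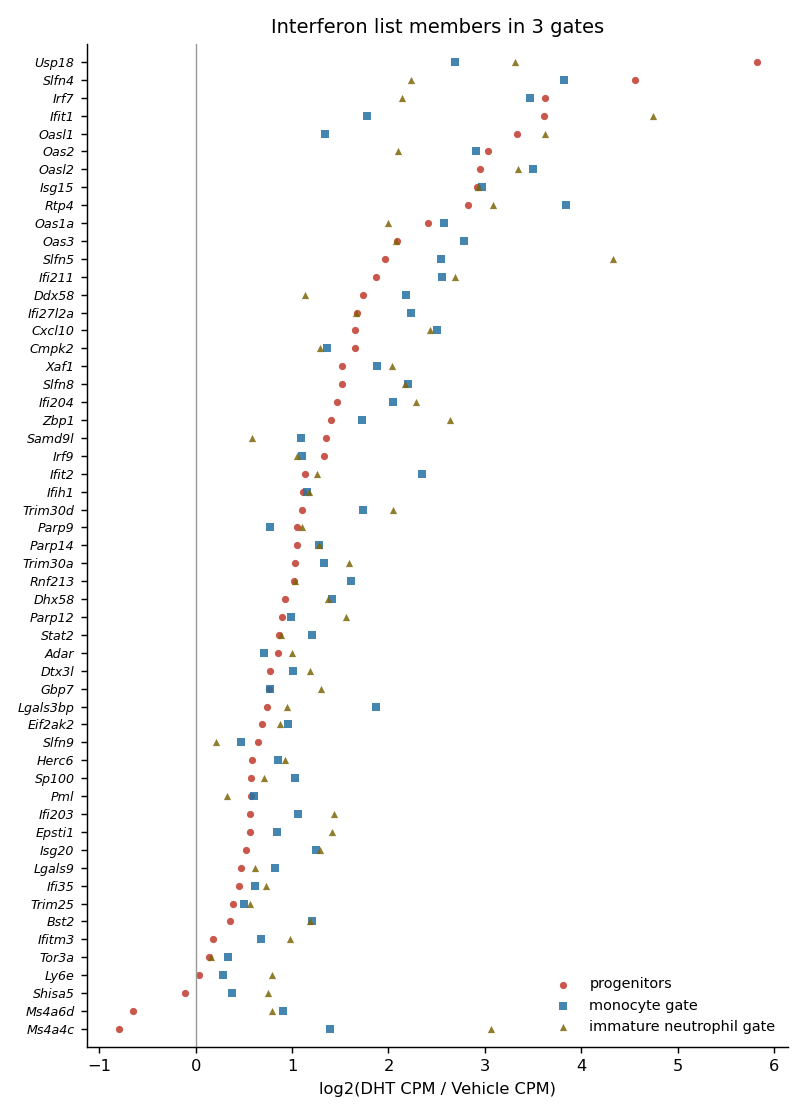
Log2 ratio of DHT over vehicle (horizontal axis) of 55 of the 56 measured interferon list members (vertical axis, ordered by the progenitors' value) in progenitors, the monocyte gate and the immature neutrophil gate, each from summed UMIs of 1 library per group. Isg15 nearly coincides in all gates at 2.92 to 2.97, while Ms4a4c, Ms4a6d and Shisa5 are below 0 in progenitors alone; Ifit1, at 0 UMIs with vehicle in progenitors, is drawn at its lower bound.

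Upstream parts of the interferon pathway lay mostly within 1.5-fold. Of 17 measured ligands, receptors and sensors 1 was higher, the lipopolysaccharide receptor Tlr4 (7.97 and 5.18 CPM), and 1 lower, Irf5 (18.7 and 32.1 CPM, -0.78). These counts are close to the shares of all measured genes, 6.73% higher and 4% lower. Over the 16 past 2 CPM in both libraries they were also 1 and 1. The receptor chains Ifnar1 (22.8 and 25.04 CPM) and Ifnar2 (110 and 121 CPM) had log2 ratios of -0.14 each. The kinases Jak1 (0.29) and Tyk2 (0.12) and the sensor Cgas (0.20) were within 1.5-fold. Genes linked to interferon gamma differed less than the type I list, with 3 of 27 higher and 1 lower (median 0.18). Over the 26 that reached 2 CPM in both libraries 2 were higher and 1 lower (0.17). The 3 higher of the 27 were the immunity-related GTPases Igtp (1.27), Irgm2 (0.96) and Irgm1 (0.62), while the class I genes H2-K1 (0.12) and H2-D1 (-0.18) were near even.

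Monocyte commitment genes were lower with DHT: 8 of 15 measured were lower and 0 higher (median -0.62), against 4 and 6.73% of all measured genes. Klf4 was at 27.3 CPM (24.5 to 30.3) with DHT and 63.1 (58.6 to 67.9) with vehicle, a ratio of 0.432 (0.379 to 0.491). Irf8 was at 145 and 240 CPM (-0.72), F13a1 at 139 and 225 (-0.69), the lysosomal protein Cd68 at 25.5 and 50.9 (-0.99), Pld4 at 17.1 and 37.6 (-1.14) and the fractalkine receptor Cx3cr1 at 22.1 and 37.0 (-0.74). Ly6c2 (-0.10) and Zeb2 (0.00) did not differ by 1.5-fold. Over 14 members past 2 CPM in both libraries 7 were lower (-0.56). The mix of cells moved with this result. Over members past 2 CPM in both libraries, the median was -0.05 in the low range with 1 of 14 lower, -0.70 in the middle range with 7 of 13, and -0.24 in the high range with 3 of 11. Among all genes so measured 3.29, 4.57 and 4.27% were lower. With the DHT cells weighted to the vehicle mix over 5 ranges the median was -0.22 with 4 lower, and Klf4 (-0.68), Irf8 (-0.45) and F13a1 (-0.29) were closer to 0. In the monocyte gate, which F13a1, Vcan, Ccr2 and Ly6c2 define, the list had 1 of 16 higher and 0 lower (0.19).

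Neutrophil genes were mixed. Of 15 measured, 8 were higher and 1 lower (median 0.78), against 6.73 and 4% of all measured genes. Of 13 past 2 CPM in both libraries 6 were higher and 1 lower (0.50). The 8 include Ngp and Camp, whose shares of cells are set beside those of the osteoclast gate below. Gfi1 was at 47.5 CPM (43.8 to 51.4) with DHT and 20.6 (18.1 to 23.4) with vehicle, a ratio of 2.30 (1.98 to 2.68), and was higher in the middle (45.9 and 24.3) and high (108.5 and 54.9) ranges. At 5000 UMIs Gfi1 was seen in 28.1% of DHT and 12.4% of vehicle progenitors, against 0.464 and 0.189% in the osteoclast gate. Cebpe differed less (65.9 and 46.5 CPM, 0.50) and not in the high range (172 and 179). Chil3 was lower (86.9 and 131 CPM, -0.59), though it was higher in the middle range (87.9 and 52.2). Fcnb, a ficolin of promyelocytes, leaned lower within 1.5-fold (37.3 and 54.6 CPM, -0.55).

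Among secondary granule genes of the list, Ngp and Camp were higher and Lcn2 (88.6 and 74.0 CPM, 0.26) was within 1.5-fold. Ngp was at 150 and 47.8 CPM and Camp, the cathelicidin precursor, at 75.7 and 23.2 CPM, log2 ratios of 1.65 and 1.70. After thinning, Ngp was seen in 34.1% of DHT and 7.45% of vehicle progenitors and in 25.9 and 11.2% of osteoclast gate cells. Camp was seen in 25.7 and 14.3% of progenitors and in 31.6 and 13.9% of osteoclast gate cells. With DHT the Camp share was thus below that of cells that should lack it and with vehicle close to it, and the Ngp share was above it with DHT alone. These pooled shares therefore do not tell whether the progenitors express the 2 genes. In the high range Ngp was at 479 and 197 CPM, above the 150 and 91.6 CPM of the osteoclast gate. In the low range Ngp was at 56.6 and 17.0 CPM. Camp was at 151 and 33.1 CPM in the high range, below the 173 and 110 CPM of that gate. Expression by the progenitors themselves was not tested. Of 9 measured markers of mature neutrophils outside the rule 7 were higher and 0 lower, against 6.73 and 4% of all measured genes. Since 2 of the 9 reached 2 CPM with DHT alone, these 2 had to be higher. The genes of the rule S100a8 (3339 and 1751 CPM) and S100a9 (1375 and 561) are given as description. Retnlg, a marker of mature neutrophils, was at 6.66 and 1.64 CPM, and immature neutrophils themselves were 17.8% of filtered DHT and 8.56% of vehicle cells. The part of neutrophil RNA in these values was not tested. With S100a8 and S100a9 held under 1% in each cell, Gfi1 kept a log2 ratio of 1.28, Ngp had 1.23 and Camp 0.95.

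Genes of early progenitors were higher or near even with DHT: 6 of 18 measured were higher and 0 lower (median 0.50), or 5 and 2 with TMM scaling. The shares over all measured genes were 6.73 and 4%. The homeobox factor Hoxa9 was at 25.2 CPM (22.6 to 28.1) and 11.7 (9.85 to 13.9), a ratio of 2.15 (1.75 to 2.64). Muc13 was at 19.97 and 8.46 CPM (1.24), Bcl11a at 34.1 and 19.0 (0.85), Adgrl4 at 29.6 and 16.4 (0.85), Kit at 75.3 and 46.3 (0.70) and Myb at 245 and 163 (0.59). Cd34 (41.3 and 42.3 CPM) and Lmo2 (178 and 195) did not differ by 1.5-fold, and Ifitm1 (77.6 and 115, -0.57) and Cd48 (76.3 and 104, -0.45) leaned lower. Weighted over 5 ranges, 4 were higher (median 0.37), with Hoxa9 at 1.02 and Kit at 0.41. By mean of each cell's CPM 3 were higher and 2 lower (0.37).

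Of 4 measured stem cell markers 3 were higher, all at low levels, against 6.73% of all measured genes. Since 1 of the 4 reached 2 CPM with DHT alone, it had to be higher. Past 2 CPM in both libraries 2 of 3 were higher. Mecom was at 9.52 and 2.07 CPM, and Hlf at 12.1 and 4.40. Of 19 measured myeloid transcription factors, 2 were higher (Gfi1, Myb) and 3 lower, Klf4 and Irf8 among them. Spi1 (286 and 328 CPM), Cebpa (54.2 and 46.7), Runx1 (319 and 291) and Cebpb (251 and 313) were within 1.5-fold.

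Of 17 measured cytokine receptors 3 were higher, the G-CSF receptor Csf3r (55.3 and 33.2 CPM, 0.74), Kit (0.70) and Il1rap (0.63), and 2 were lower, the RANK receptor Tnfrsf11a and Il6st (13.5 and 23.4, -0.79). For all measured genes these shares were 6.73 and 4%. Tnfrsf11a, through which RANKL acts, was at 8.75 CPM (7.21 to 10.5) with DHT and 28.7 (25.7 to 31.9) with vehicle, a ratio of 0.305 (0.244 to 0.379). It was lower in the low (8.34 and 29.2) and middle (11.6 and 38.6) ranges. At 5000 UMIs Tnfrsf11a was seen in 5 of 167 DHT and 11 of 161 vehicle progenitors, against 73.7 and 75.9% of osteoclast gate cells, so free RNA from those cells is a possible part of its level that was not tested. The M-CSF receptor Csf1r (68.1 and 89.5, -0.39) and the shared GM-CSF receptor chain Csf2rb (89.5 and 116, -0.37) were within 1.5-fold.

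Genes of osteoclast differentiation had 6 of 16 lower and 2 higher (median -0.24), against 4 and 6.73% of all measured genes. Past 2 CPM in both libraries 14 were left, with 5 lower and 2 higher. Atp6v0d2 (7.74 and 15.3 CPM) and Dcstamp (3.64 and 7.51), both used in osteoclast fusion, were lower. Car2, the highest member, was at 24.4 and 13.3 CPM (0.87), while Nfatc1, the osteoclast master factor, was even (30.9 CPM in both). Among macrophage markers that the rule did not use, Adgre1 (F4/80; 11.8 and 28.5 CPM) and Trem2 (16.1 and 35.7) were lower, and Vcam1 (156 and 85.8) was higher. The summed level of 7 macrophage markers outside the rule was 203 CPM with DHT and 173 with vehicle, of which Vcam1 alone made 156 and 85.8. Of the 6 measured among them 1 was higher and 3 were lower. For 6 osteoclast markers outside the rule the sum was 83.5 and 80.2 CPM, with 1 of 5 measured higher and 3 lower. Whether such RNA has a part in the lower genes was not tested.

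Cell cycle genes showed 0 list members past 1.5-fold in either direction, where 6.73% of all measured genes were higher and 4% lower. The median log2 ratio was 0.19 for 30 S phase genes and -0.25 for 30 genes of G2 and M phase. Examples are Mcm6 (205 and 178 CPM), a part of the DNA helicase, Cdc20 (66.6 and 98.8), which starts anaphase, and Mki67 (315 and 302). Cells of the low range gave most to both phases, with median shares of 0.432 and 0.348% for S phase genes against 0.282 and 0.232% in the high range. Of 19 genes of ribosome formation and its regulator Myc, 1 was higher, Myc itself (113 and 72.8 CPM, 0.64). That count is close to the 6.73% of all measured genes. Of 20 genes of the unfolded protein response 0 passed 1.5-fold in either direction (median 0.18), with the chaperone Hspa5 at 1104 and 897 CPM. Oxidative phosphorylation (24 genes, -0.07) and glycolysis (15 genes, -0.07) also had 0 past 1.5-fold.

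Of 18 measured genes of androgen and steroid response 3 were higher and 0 lower (median 0.24), against 6.73 and 4% of all measured genes. The 3 were the oestrogen receptor Esr1 (40.7 and 22.9 CPM, 0.83), Zbtb16 (11.8 and 5.09, 1.21) and the progesterone receptor Pgr (7.05 and 2.25, 1.65). Fkbp5, a common steroid response gene, was at 68.9 and 57.0 CPM (0.27), and Klf9 at 17.2 and 11.5 (0.58).

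Of the 12 genes with the highest ratios, Prg2, an eosinophil granule protein, led with 55.2 and 0.432 CPM, but 1 DHT cell held 99.0% of its UMIs. The others were Aff3 (30.0 and 6.22 CPM, 2.27), St6galnac3 (1.90), Camp, Ifi27l2a, Ngp, Zeb1 (1.42), Syne1 (86.1 and 32.7, 1.40), Slc28a2 (1.32), the kinase Pim1 (47.1 and 20.4, 1.21), Gfi1 and Acpp (65.7 and 28.8, 1.19). Aff3 was higher in each range, at 15.9 and 3.57, 40.4 and 8.96, and 27.0 and 8.97 CPM.

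The 12 lowest were Cd74, Tnfrsf11a, Lgals3, Ank, Tgfbi, St18, St3gal5, Lyz2, Adgre1, Klf4, S100a6 and Blvrb. Lyz2, the lysozyme of monocytes and macrophages, was at 742 CPM (728 to 757) with DHT and 1803 (1779 to 1828) with vehicle, a ratio of 0.412 (0.402 to 0.422). It was at 1554 and 2460 CPM in the low, 413 and 1503 in the middle and 263 and 294 in the high range. The galactose-binding protein Lgals3 was at 124 and 353 CPM (-1.51), with 244 and 411 in the low and 85.3 and 407 in the middle range. Cd74, the class II invariant chain, was at 10.5 and 43.5 CPM (-2.05), yet its sign turned to 0.47 once the cells that Scrublet marked were removed, and it was -0.80 without the 3 highest cells of each library. Ank (-1.43) had 32.3% of its vehicle UMIs in 1 cell, and St18 (-1.32) 42.3% of its DHT UMIs in 1 cell. Without the Scrublet cells Ank was at -0.52.

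Markers of other cell types differed in level. Those of plasmacytoid dendritic cells, of which 3 of 7 were measured, summed to 332 CPM with DHT and 256 with vehicle. Bst2, also a member of the interferon list, gave much of this sum. In the low range Bst2 was at 218.5 CPM with DHT and 150.6 with vehicle, of 358 and 256 for the measured markers there. Markers of T and NK cells summed to 0.774 and 0.432. Erythroid globins Hba-a1, Hba-a2, Hbb-bs and Hbb-bt, the T cell gene Cd3e, the mast cell genes Cma1 and Tpsb2 and the eosinophil gene Epx were at 0 in both libraries. Of 9 B lineage genes 3 were measured, and Ebf1 was at 5.50 and 0.259 CPM, with 76.1% of its DHT UMIs in 1 cell. Monocyte markers summed to 1842 CPM with DHT and 2070 with vehicle, and mature neutrophil markers outside the rule to 437 and 214, ranging over cells from 0.00810 to 0.740% of UMIs with DHT and from 0 to 0.343% with vehicle.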

How the data were processed

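The values are whole-number UMI counts, not normalized, which the authors deposited as 1 gene-by-barcode matrix a library. The submitters' processing notes name Cell Ranger 7.0.1 and 2 builds, GRCh38 and mm10, with no role stated. The use of intronic reads or strand and the calling of cells are not given in the sources used, so reads of overlapping or antisense genes may be shared. Progenitors were picked by the rule in the report. Their counts were summed per library and divided by the library's sum (CPM). Ratios carry exact conditional binomial intervals, levels exact Poisson and shares exact Clopper-Pearson intervals at 95%. With 1 library per group no test was run. The monocyte gate required F13a1, Vcan, Ccr2 and Ly6c2 at 0.1% or more with granule genes under 0.3%, and the immature neutrophil gate S100a8 and S100a9 at 3% or more with Camp, Ngp and Ltf at 0.3% or more. The remaining limits of the rule held in both. A share of 0 carries a limit of 3 cells. The osteoclast gate held cells with Acp5 and Ctsk at 0.1% or more.

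The members and gene lists were chosen with earlier results of these data known. Named genes are the 12 highest and 12 lowest ratios among genes at 20 CPM (without mitochondrial, ribosomal, immunoglobulin, Y-linked, Xist, predicted and the 11 rule genes), list members past 1.5-fold, the 2 highest and 2 lowest of each list, and 20 fixed names. Other list members, the leading genes against the rest and the promoters shown were picked after values were seen. Of 32285 identifiers, 99.8% matched GENCODE release M21. Aldoa and Ddit3, each with 2 identifiers, are outside the lists. Doublets were called per library with Scrublet (scanpy 1.11.5) and removed in an alternative. The script was tested on simulated data. Tools were Python 3.11.15, numpy 2.4.6, scipy 1.17.1 and edgeR 4.0.16 (TMM factors) in R 4.3.3. Some genes of the lists are counted in them but not reported here by name.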

Additional observations from a re-analysis of the deposited data

How the results depend on the processing

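No paired analysis was possible because each group has 1 library. The share of progenitors was 2.47% with DHT and 1.98% with vehicle. With DHT it was 2.90% at 10000 UMIs, 2.90% at a granule limit of 0.2%, 1.88% at 1%, 1.91% with S100a8 and S100a9 under 1% and 4.76% with the granule limit alone. With vehicle it was 2.12% at 10000 UMIs, 2.31% at 0.2%, 1.19% at 1% and 3.25% with the granule limit alone. Counts of higher and lower genes were 245 and 162 at 10 CPM, 53 and 51 at 50 CPM, 1224 and 787 with no CPM minimum and 25 and 22 at 2-fold. Weighting DHT cells over 3 or over 5 granule ranges left 63 lower genes. The interferon list had 38 to 44 members higher in the other settings, but 8 higher and a median of 0.57 at 20 CPM, where 19 members are measured. Its lower members numbered 1 without Scrublet calls, at a 1% granule limit or with S100a8 and S100a9 under 1%, and 0 at a 0.2% limit, at 20 CPM or with either weighting. The cause was not tested. Signs turned for the conventional dendritic cell markers (0.77 without Scrublet calls, 0.53 without each gene's 3 highest cells), Cd74 (0.47 without Scrublet calls) and Chil3 (0.087 at a 1% granule limit). The trimming, the 5 ranges and the granule limit alone were chosen after seeing the data.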

Other observations

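Of the 129 higher genes 48, and of the 98 lower genes 28, stayed past 1.5-fold in each of 5 alternatives: both weightings over granule ranges, a granule limit of 1%, S100a8 and S100a9 under 1%, and each gene without its 3 highest cells. The genes that follow were picked from these after their values were seen. Among the 48 were the matrix protein gene Thbs1 (143 CPM with DHT and 68.1 with vehicle), the kinase gene Camk1d (502 and 287), Dach1 (101 and 46.2), Slco3a1 (102 and 46.7), the antibacterial protein gene Pglyrp1 (120 and 55.5), the inflammatory caspase gene Casp4 (40.6 and 23.3) and the cytokine receptor gene Il31ra (39.2 and 21.0). Among the 28 were the intermediate filament gene Vim (456 and 828), the ferritin light chain gene Ftl1 (2669 and 4292), Tyrobp (437 and 721), an adaptor of myeloid receptors, the lipase gene Lpl (145 and 265), the calcium-binding protein genes S100a4 (167 and 315) and S100a6 (152 and 343), Capg (61.5 and 129), Gpnmb (108 and 192) and Fos (22.5 and 45.5).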
